A study of Callorhinchus milii with 12 samples.

Results

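The elephant shark (Callorhinchus milii) carries 5-methylcytosine at most CG sites of its genome, and 1234 short stretches of the liver genome fell well below this level while the DNA on both sides stayed methylated. These stretches, called dips here, were found by adding the CG calls of a female and a male liver. The genome was divided into adjoining bins of 500 bp, and the level of a bin is the share of its CG calls that were methylated. A dip is a run of 1 or 2 bins at 20% to under 50%, with at least 20 calls in each bin, in which each of the 3 bins on either side also held at least 20 calls and stood at 70% or more. Scaffolds with a level under 20% in all were left out, which removed 5 of 330. Of the 1738411 bins, 1029916 held at least 20 calls and 1026815 of these lay on the scaffolds kept. The dips took up 1349 of them, as 1119 dips of 1 bin and 115 of 2 bins. A further 114443 bins at 20% to under 50% were in no dip, because their run was longer than 2 bins or lacked such flanks.

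The samples were liver tissue of an adult female and an adult male, taken from recently dead animals that came from commercial fishing, with no treatment and no named strain. DNA was converted with bisulfite, which turns unmethylated but not methylated cytosine into uracil, and sequenced by post-bisulfite adapter tagging (PBAT) in 1 deep library per sex. Sequencing of the female liver gave 30080951 CG calls, spread over 12682448 reads, at a level of 69.0%. The male liver gave 38128530 calls over 15880802 reads at 71.6%. The study also sequenced 10 libraries of liver, pancreas and spleen at low coverage, and their files, which hold totals without positions, were not used. With 1 library per sex, no difference between the livers has a replicate check, and liver is a mixture of hepatocytes and other cells whose shares were not measured.

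In vertebrates, methyl groups on CG sites are copied to the new strand after each round of replication by maintenance methyltransferases. Most of a vertebrate genome is methylated in somatic tissues, apart from regulatory elements, above all CG-rich promoters, where the mark is often absent. In mammals, short stretches of reduced methylation far from promoters often lie at enhancers, where transcription factors bind and the mark is lost in a part of the molecules or over a few sites. The dips were defined by their levels, and no gene or sequence annotation was used to place them.

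By the rule, the level of the dips in both livers together lay between 20% and 49.7%. The median was 41.2% and the quartiles were 34.6% and 45.8%, so that most dips were of intermediate level and few were low. Their flanks had a median level of 85.3%, with a range of 72.6% to 96.8%, and the median step from flank to dip was 45.1 points. A dip held a median of 53 calls (quartiles 34 and 85), of which 24 were female and 29 male at the median, on a median of 11 CG sites. At this depth the level of many dips was loosely fixed: the upper end of the 95% Wilson interval was under 50% in 397 of the 1234 dips (32.2%). All such intervals cover counting error only and treat each call as independent, and neighbouring calls of a read often were not, so the true error is wider.

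The firmest examples were the 38 dips that met the whole rule in each liver alone. They are described without a test, since their levels chose them. At the median, the female liver stood at 37.0% and the male at 36.1% in these dips, on a median of 18 CG sites. The livers differed by a median of 6.86 points and at most by 22.9 points, and the female level was the higher one in 19 of the 38. Among these, 14 held more CG sites per bin than the mean of their 6 flank bins. The 10 with the most calls in the less covered liver are described next, read in steps of 100 bp.

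The dip with the most calls in this set, at NW_006890314.1:284501-285500, spanned 2 bins and 72 CG sites. In the female liver 76 of 236 calls were methylated (32.2%), and in the male liver 91 of 288 (31.6%). Its lowest part lay in the middle. From 284801 to 284900 the counts were 0 of 23 female and 1 of 53 male calls, and from 285001 to 285100, with 13 CG sites, they were 0 of 21 and 0 of 15. The first 100 bp stood at 69.8% in the female and 81.8% in the male liver. The intermediate level of this dip was thus an average over an unmethylated centre and methylated edges.

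At NW_006890139.1:3019501-3020000 the 500 bp held 50 CG sites, and 37 of 162 female calls (22.8%) and 29 of 132 male calls (22.0%) were methylated. The low part was its last 200 bp, where 19 and 18 of the sites were packed. There the female liver had 6 of 51 and then 4 of 78 methylated calls, and the male liver 1 of 36 and then 2 of 59. The first 300 bp stood at 62.5% to 92.3% in both livers. The low stretch thus reached the end of the bin, beyond which the next bin was methylated again at 84.9% or more in each liver.

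The opposite order held at NW_006890324.1:297501-298000, which had 41 CG sites, 27 of 135 methylated calls in the female (20.0%) and 39 of 117 in the male liver (33.3%). The first 200 bp carried 2 of 41 and 0 of 62 methylated calls in the female, and 0 of 20 and 2 of 57 in the male liver. The last 200 bp carried 10 of 10 and 15 of 16 in the female, and 23 of 24 and 14 of 15 in the male liver. An unmethylated and a methylated stretch thus met inside the bin in both livers, and the higher male level of the whole bin went with more male calls on its methylated part.

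The dip at NW_006890055.1:2978001-2978500, with 29 CG sites, stood at 36.9% (38 of 103) in the female and 41.3% (64 of 155) in the male liver. Its level was low at the start, lowest in the next 200 bp and high at the end. From 2978101 to 2978300, the successive steps of 100 bp had 1 of 25 and 0 of 20 methylated calls in the female, and 0 of 41 and 0 of 15 in the male liver. The last 100 bp had 24 of 25 and 38 of 44. Both livers had their lowest and highest steps at the same places.

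The other 6 of the 10 had 19 to 31 CG sites. At NW_006890296.1:493501-494000 the livers stood at 31.3% (30 of 96) and 33% (34 of 103), and its lowest step, from 493801 to 493900, was at 16% and 19.1%, well above 0. At NW_006890123.1:2428001-2428500 the livers stood at 35.5% (22 of 62) and 34.6% (28 of 81). Its last 100 bp, after steps near 0, had 8 of 8 female and 6 of 6 male calls methylated. The dip at NW_006890063.1:10976501-10977000 stood at 39.7% (23 of 58) and 31.7% (33 of 104), and that at NW_006890100.1:2631501-2632000 at 44.8% (26 of 58) and 45.1% (37 of 82). In the latter, the female liver had 6 of 6 and 13 of 13 methylated calls in the first 200 bp, and 2 of 25 from 2631801 to 2631900. The dip at NW_006890146.1:775001-775500 stood at 38.2% (21 of 55) and 34.3% (34 of 99), lowest at its start. The widest difference among the 10 was at NW_006890156.1:524001-524500, with 24.3% (28 of 115) in the female and 47.3% (35 of 74) in the male liver. It lay in 1 step, from 524301 to 524400, with 13 of 71 female and 26 of 46 male methylated calls, while the step before it was low in both.

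**Figure D1:**
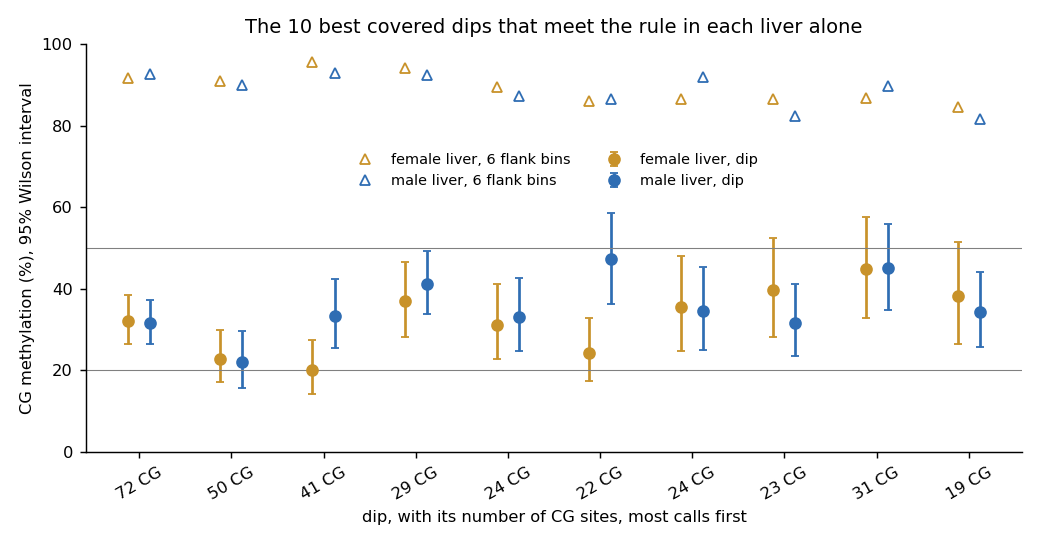
CG methylation level in percent (vertical axis) of the 10 dips that met the rule in each liver alone and held the most calls in the less covered liver (horizontal axis, each by its number of CG sites, the most calls first), as filled circles with 95% Wilson intervals, and of their 6 flank bins as open triangles, for each liver. Grey lines mark 20% and 50%. The dips stood between 20.0% and 47.3% in both livers, and the pooled level of the 6 flank bins was above 80% for each dip.

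The dip with the most CG sites of all was at NW_006890071.1:176501-177500, with 85 sites in 2 bins, or 42.5 per bin against a mean of 22.8 in its flank bins. In the female liver 164 of 392 calls were methylated (41.8%) and in the male liver 111 of 382 (29.1%), in flanks at 90.7% and 90.8%. Of the female reads with at least 3 calls, 7 were methylated throughout, 22 unmethylated throughout and 20 mixed, and of the male reads 6, 30 and 19. The dip just inside the lower limit was at NW_006890199.1:572501-573000, with 5 of 25 calls methylated (20.0%). The dip just inside the upper limit was at NW_006890341.1:323001-323500 with 49.7% of 189 calls. Its coverage was unusually high, at 18.9 calls per CG site against 7.54 in its flanks. This is above 15, which is 3 times the median of bins. Just outside lay the bin NW_006890117.1:630501-631000 at 19.8% (35 of 177) and the bin NW_006890138.1:1191001-1191500 at 50% (19 of 38). The limits thus passed between bins of nearly the same level.

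The dips were a tail of the levels found in methylated flanks and not a group of their own. In all, 71543 single bins lay between 3 methylated flank bins on either side. Of these, 64747 (90.5%) stood at 70% or more, 5531 (7.73%) at 50% to under 70%, 1119 (1.56%) were dips and 146 (0.204%) were under 20%. The number of bins fell step by step, from 654 at 50% to under 55% and 373 at 45% to under 50%, down to 70 at 20% to under 25% and 53 at 15% to under 20%. The share of dips also went with depth. It was 3.26% of 6985 bins with 20 to 29 calls, 2.22% of 15060 with 30 to 49, 1.36% of 28279 with 50 to 99 and 0.811% of 21219 with 100 or more. The part of counting error in the number of dips was not tested.

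**Figure D2:**
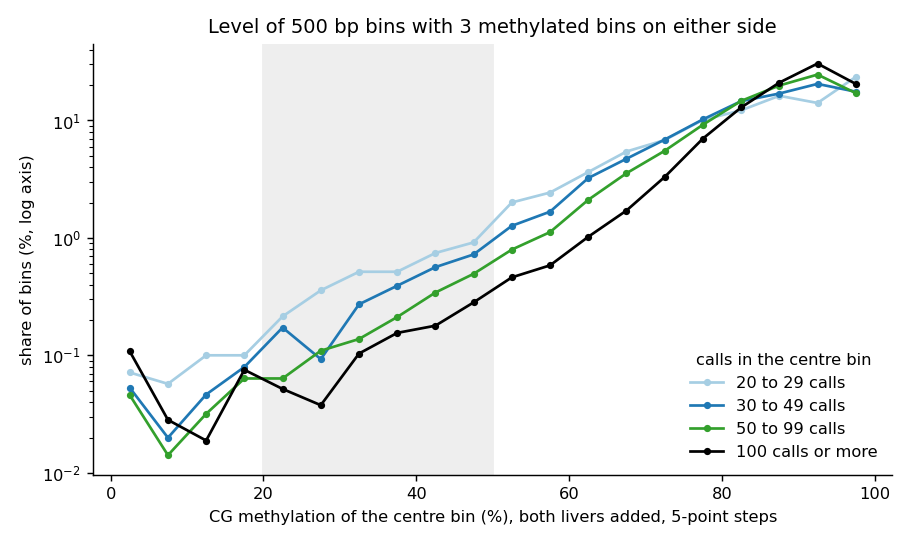
Levels of single 500 bp bins whose 3 neighbours on either side were all at 70% or more. The share of bins in percent (log axis) is shown per step of 5 points of level in both livers together. Separate lines show bins with 20 to under 30, 30 to under 50, 50 to under 100, and 100 or more calls. Over all classes, dips, at 20% to under 50%, were 1119 of 71543 bins, with 654 bins in the step just above them and 53 in the step just below.

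Whether a dip found in 1 liver was there in the other was read by running the rule on each liver alone. The liver that did not choose the dips gives a level free of the choice. From the female liver 211 dips were found, and 203 had at least 20 calls in the male liver. Their median level went from 40.9% in the female to 53.8% in the male liver, where 9 stood under 20%, 77 at 20% to under 50%, 66 at 50% to under 70% and 51 at 70% or more. From the male liver 417 were found, and 333 could be read in the female liver, at a median of 40.5% in the first and 51.4% in the second, with 16, 140, 119 and 58 in the same classes. The dips were thus shallower in the liver that had not chosen them, and 25.1% and 17.4% of them were methylated there at 70% or more. Such a shift was not particular to dips. In other bins at 20% to under 50% the median went from 40% to 52.5% and from 40.7% to 45.5%. Of these bins, 15.2% and 9.06% stood at 70% or more in the liver that had not chosen them.

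The held-out level was low far more often than in methylated bins. It was under 50% in 42.4% of the female-chosen dips (95% interval 35.8% to 49.2%) and in 46.8% of the male-chosen dips (41.6% to 52.2%). Among bins chosen at 70% or more in the same kind of flanks, it was under 50% in 41 of 10869 (0.377%) and 98 of 21021 (0.466%). The held-out dip was below its own flanks in the same liver in 190 of 203 (93.6%) and 318 of 333 (95.5%), against 44.6% and 44.1% for the methylated bins. Other bins at 20% to under 50% were those in no dip of the choosing liver. They held their level about as often in the male and more often in the female liver. Under 50% were 42.5% of 44147 and 58.1% of 34066. Runs under 20% in methylated flanks were under 50% in 87.1% of 31 and 95.7% of 46, a looser limit for regions chosen at under 20%. They stayed under 20% in 67.7% and 63.0%.

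**Figure D3:**
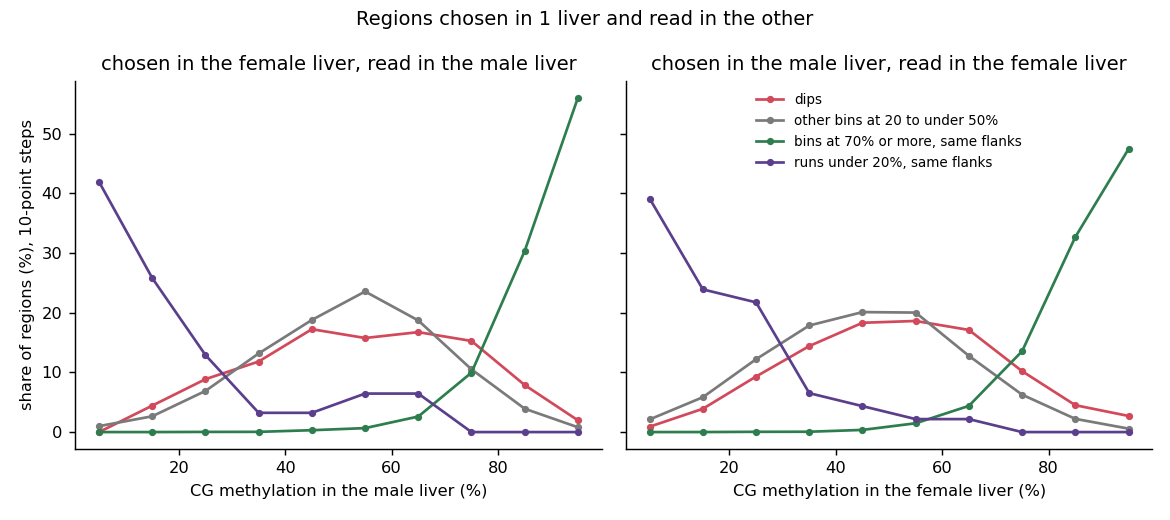
Level in the liver that did not choose the regions, as the share of regions in percent (vertical axis) per step of 10 points of level (horizontal axis), for dips, other bins at 20% to under 50%, and runs under 20% and bins at 70% or more in the same flanks, chosen in 1 liver and read in the other. The dips spread widely, with medians of 53.8% in the male and 51.4% in the female liver, while 96.4% and 93.7% of the methylated bins stayed at 70% or more.

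Among the 1234 dips, 667 had at least 20 calls in each liver, and both livers were under 50% in 376 of them (56.4%). This share was larger where the dips were better covered, from 52.7% of 1083 dips with at least 10 calls in each liver to 64.3% of 258 with at least 40 and 69.2% of 117 with at least 60. Taken singly, 511 of the 667 stood at 20% to under 50% in the female and 470 in the male liver. Only 3 stood at 70% or more in the female and 4 in the male liver, and 6 had 1 liver under 30% with the other at 70% or more. Since the sum of both livers chose them, the livers are not independent here, and a dip that is high in 1 liver must be low in the other.

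Within the dips, the low level was drawn together over a short distance. For each dip the 100 bp with the lowest level was placed in 1 liver and then read in the other, which had no part in placing it. The sum of both livers chose the dips themselves, so the place of the trough is free of the reading liver, but the level of its dip is not. Placed in the female liver, where it averaged 12.8%, this trough stood at 25.9% (25.2% to 26.6%) of male calls, against 46.7% in the rest of the same dips. Placed in the male liver at 13.8%, it stood at 23.2% (22.4% to 24.0%) of female calls, against 43.3% in the rest. The trough was lower than the rest of its dip in 681 of 902 dips (75.5%) read in the male and in 582 of 751 (77.5%) read in the female liver. It was under 20% in 381 (42.2%) and 363 (48.3%) of these dips, and at 50% or more in 186 (20.6%) and 102 (13.6%). Among other bins at 20% to under 50% it was lower than the rest in 64.6% and 66.3%, and under 20% in 28.2% and 36.6%. The pooled level of these troughs was also higher, at 33% against 44.7% in the male and 28.6% against 41.0% in the female liver. Unlike dips, other bins did not need methylated bins on both sides. They held a median of 35 calls and 8 CG sites, against 50 and 11 in dip bins. The part of flanks and depth in this contrast was not tested, so no conclusion is drawn from it.

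The level rose on both sides of the trough. With the trough placed in the female liver, the male level was 25.0% in the 50 bp centred 25 bp after its centre, 50.0% at 125 bp before and 45.3% at 125 bp after it, and 82.9% and 80.9% at 425 bp on either side. With the trough placed in the male liver, the female level was 22.1% at 25 bp before the centre, 46.7% at 125 bp before, 55.2% at 175 bp after it, and 83.5% and 80.1% at 425 bp. These levels are shares of calls pooled over the dips. With each dip counted alike, the level next to the centre was 27.2% in the male and 22.7% in the female liver, and 425 bp after it 78.2% and 77.5%. Since most dips are 1 bin and the bins beside them had to be methylated, a return to a high level within this distance was set by the rule and is no result.

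**Figure D4:**
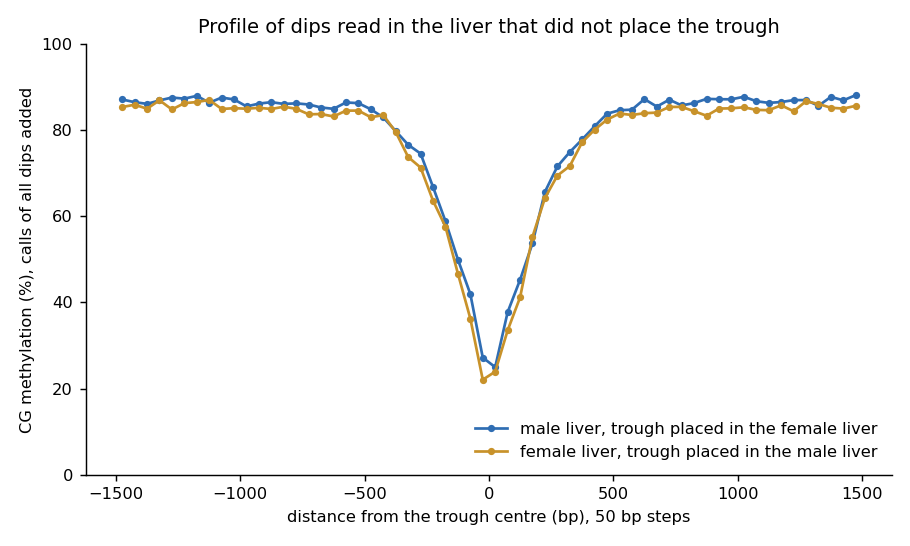
CG methylation level in percent of calls pooled over the dips (vertical axis) in steps of 50 bp against the distance in bp from the centre of the lowest 100 bp of each dip (horizontal axis), with the trough placed in 1 liver and the level read in the other. The level was 25.0% in the male and 22.1% in the female liver next to the centre and above 80% at 425 bp on either side.

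An intermediate level can come from sites that differ along the DNA or from molecules that differ at the same site. Both were seen in the dips. Of 8505 CG sites in dips with at least 5 calls, 29.3% were under 20%, 13.0% were at 80% or more and 21.1% lay between 40% and 60%. In other bins at 20% to under 50% the spread was narrower, with 24.3% under 20%, 8.58% at 80% or more and 25.9% in the middle. In the flanks 76.3% of sites were at 80% or more.

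The reads were also unlike each other. Of 6018 female reads with at least 3 calls in a dip, 18.1% were methylated at every call, 42.0% at none and 39.9% (38.7% to 41.2%) at some. Of 7566 male reads the shares were 19.7%, 40% and 40.4% (39.3% to 41.5%). Mixed reads were more frequent in other bins at 20% to under 50%, with 48.5% of female and 49.4% of male reads. In the flanks 62.8% and 65.3% of reads were methylated at every call and 2.59% and 2.32% at none. Among dip bins with at least 10 such reads, at least 2 fully methylated and at least 2 fully unmethylated reads were found together in 115 of 184 (62.5%) in the female and 191 of 264 (72.3%) in the male liver, against 6.1% and 6.69% of flank bins and 50.5% and 57.7% of other bins at 20% to under 50%. Reads of both kinds thus lay over the same 500 bp in most of the well covered dips, though not always over the same sites.

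Pairs of calls at the same pair of CG sites, up to 100 bp apart, separate the 2 kinds of difference. Pairs taken from different reads were alike in 59.3% of cases in the female and 58.2% in the male liver. Pairs taken from the same read were alike in 75.7% and 75.1%, which is 16.4 and 16.9 points more. The same-read value was the higher one in 78% of 1027 female and 80.6% of 1146 male dip bins. Calls of different reads at the same site were alike in 64.8% and 63.6%, above the value for different sites. The excess within reads was 15.2 and 16.1 points in other bins at 20% to under 50%, 5.61 and 5.07 points in the flanks, and 2.89 and 1.60 points in runs under 20%. Molecules therefore differed over the same pair of sites in the dips about as much as in other bins of the same level. Whether unlike molecules came from unlike cells, or from the 2 copies of the chromosome in a cell, cannot be told apart in these libraries.

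**Figure D5:**
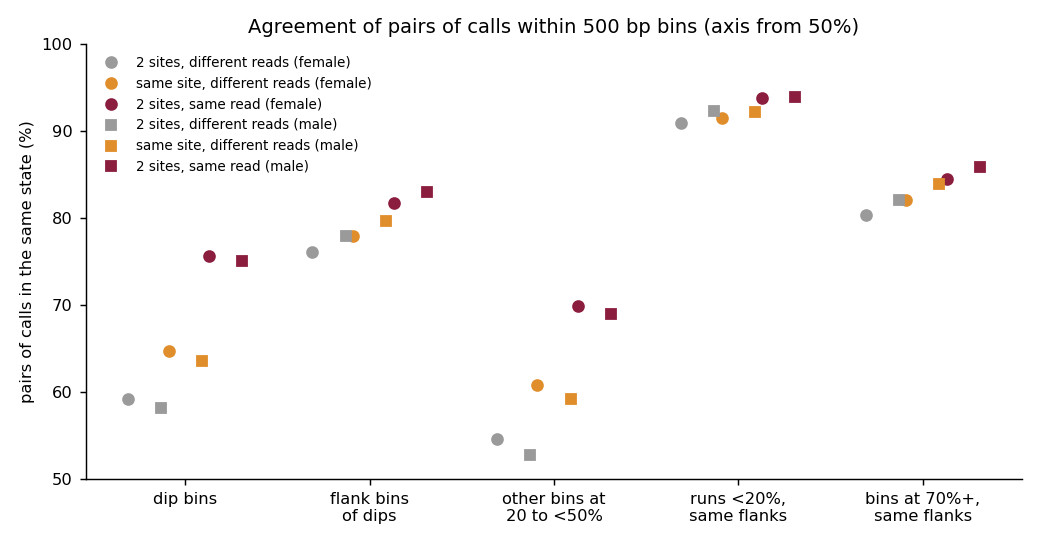
Mean over bins of the share of call pairs that were alike, in percent (vertical axis, from 50%), by class of bin and liver. Shown are pairs at the same pair of CG sites up to 100 bp apart, on the same read and on different reads. Calls of different reads at the same site are shown beside them. In the dips, pairs on the same read were alike in 75.7% (female) and 75.1% (male) and pairs on different reads in 59.3% and 58.2%.

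The dips were not marked by dense CG sites among those called. A CG site was counted only where either liver had a call, so these counts also depend on coverage. Dip bins held a median of 50 calls and their flank bins 69. Dip bins held a median of 11 sites (quartiles 8 and 15) against 13 (9 and 18) in their flanks and 13 in methylated bins of the same flanks. In 362 dips (29.3%, interval 26.9% to 31.9%) the sites per bin were more than the mean of the 6 flank bins, and in 863 (69.9%) fewer. These shares were not computed for methylated bins, so they have no baseline. Other bins at 20% to under 50% held fewer still, with a median of 8, while runs under 20% in methylated flanks held 17.5. The median gap between neighbouring CG sites was 21 bp in the dips, 18 bp in their flanks, 29 bp in other bins at 20% to under 50% and 9 bp in runs under 20%.

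By CG count, the share of flanked places that were dips was 3.43% with 2 to 5 sites, 2.20% with 6 to 10, 1.42% with 11 to 15, 0.978% with 16 to 20 and 0.875% with 21 or more. Bins with few sites also had few calls. Among bins with at least 50 calls the share still went from 1.70% with 6 to 10 sites, through 1.20% and 0.928%, to 0.878% with 21 or more. The part of depth in this order was not otherwise tested. The 5 dips named first, with 24 to 72 sites, were thus richer in CG than most, in a list ordered by calls. Coverage in the dips was slightly lower than beside them, with 5.41 calls per CG site against 5.88 in the flanks, and only 2 dips held a bin with over 3 times the median calls per site. The order of 5 successive gaps between CG sites, a rough mark of repeated DNA, could be read in 1134 of the 1234 dips. It was shared with another dip in 19 of these. Among the outermost flank bins before the dips, it could be read in 1180 and was shared in 19.

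The female and the male liver were compared in every bin with at least 5 reads in each, by a two-sided Fisher's exact test on 1 call per read with Benjamini-Hochberg adjustment over 931765 bins. This compares 2 libraries and not the sexes. None of 1251 dip bins tested was called at an adjusted p under 0.05, against 1 of all bins (0.000107%). Unadjusted p was under 0.05 in 53 dip bins (4.24%), with 36 lower in the female and 17 lower in the male liver, against 3.09% of all bins (2.2% and 0.887%) and 4.33% of other bins at 20% to under 50%. The share of dip bins was thus near that of other bins of the same level. Dip bins held a median of 11 female and 14 male reads. In only 525 of the 1251 (42%) would the reads have sufficed for a call even with every read of 1 liver methylated and none of the other, so for the rest the absence of a call was fixed by depth. When all calls were tested as if independent, 36 dip bins passed (2.88%, 24 lower in the female and 12 in the male liver) against 0.544% of all bins and 0.981% of other bins at 20% to under 50%. Dip bins held a median of 50 calls, against 35 in these other bins, and calls of 1 read were not independent. By reads, a call was within reach in 42% of dip bins and 27.5% of the other bins. The excess over all calls is therefore not read as a difference between the livers.

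Pooled over all dips, 37.8% (37.3% to 38.3%) of female and 40.7% (40.2% to 41.1%) of male calls were methylated, a difference of 2.88 points. The rule run anew on 1 kb bins chose 1400 dips, with a difference of 1.12 points. Run on 1 call per read, it chose 227 dips, with 0.603 points (interval -1.56 to 2.77, which includes 0). The regions differ between these runs, so the part of the counting alone was not tested. The flanks stood at 84.8% and 86.1%, which differ by 1.34 points, and other bins at 20% to under 50% differed by 3.67 points. The male liver was the higher one in each, as in the genome as a whole, and the difference in the dips over all calls lay between those of the flanks and of the other bins. Over sites called on both strands, a part of all calls, the strands gave like levels. These were 37.2% and 37.2% in the female and 40.6% and 40.3% in the male liver. Dip by dip, among the 667 with at least 20 calls in each, the female level was above the male in 280 (42.0%). The difference of male minus female had a median of 3.18 points, and from its 5th to its 95th percentile it ran from -26.6 to 35.2 points.

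The widest differences were looked up after these values were seen, and they carry no test beyond the one above. At NW_006890149.1:3172001-3172500, with 22 CG sites, 1 of 46 female calls (2.17%) and 49 of 74 male calls (66.2%) were methylated, in flanks at 90.3% and 86.3%. By reads this was 1 of 17 against 16 of 25, with an exact p of 0.000265 and an adjusted p of 1. All 9 female reads with at least 3 calls were unmethylated throughout, while 8 male reads were fully methylated, 3 unmethylated and 2 mixed. The low level ran over all 5 steps of 100 bp in the female liver, with 0 to 6.67%.

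Among dips with at least 20 calls in each liver, the opposite difference was widest at NW_006890149.1:213501-214000, on the same scaffold. There 19 of 25 female calls (76.0%) and 3 of 22 male calls (13.6%) were methylated. These calls came from only 9 reads in each liver, where Fisher's exact test gave p = 0.637. At NW_006890162.1:970501-971000 the levels were 7.14% (2 of 28) and 66.1% (39 of 59), yet these calls came from 4 female and 8 male reads, too few to be tested. At NW_006890100.1:1164501-1165500, a dip of 2 bins, 16 of 68 female (23.5%) and 33 of 41 male calls (80.5%) were methylated. At NW_006890239.1:216001-216500, with 26 CG sites, 13 of 77 female (16.9%) and 61 of 92 male calls (66.3%) were. By calls, each of these dips was low in 1 liver and higher in the other, with an intermediate level in the sum. By 1 call per read and bin, NW_006890149.1:213501-214000 had 5 of 9 methylated in the female and 3 of 9 in the male liver. The counts were 4 of 22 and 13 of 17 at NW_006890100.1:1164501-1165500, and 2 of 16 and 11 of 18 at NW_006890239.1:216001-216500. At NW_006890149.1:213501-214000, 4 female reads with at least 3 calls were methylated throughout, 1 unmethylated and 1 mixed. Of such male reads there were 0, 4 and 0. The cause of these differences was not tested.

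The dips were spread unevenly over the genome, at 1.42 per Mb of scaffold. They lay on 235 scaffolds, and neighbouring dips on a scaffold were a median of 152.5 kb apart (quartiles 50.25 and 374 kb). Another dip lay within 10 kb of 144 dips (11.7%). On the 70 scaffolds with at least 300 flanked places, the dips per 100 such places ran from 0.216 to 3.23 with a median of 1.53. The largest number, 39, was on NW_006890100.1, which held 1374 flanked places. NW_006890057.1 held 183 such places and no dip. The spacing of the flanked places themselves was not measured.

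The dips lay no nearer to unmethylated stretches of at least 2 bins than methylated bins did. The nearest run of at least 2 bins under 20% was a median of 60.5 kb away, and it lay within 10 kb of 125 dips (10.1%, interval 8.57% to 11.9%). For methylated bins in the same kind of flanks these values were 58.5 kb and 10.0%. For the 194 runs under 20% in methylated flanks the values were 22 kb and 75 (38.7%) within 10 kb. These runs held 242 bins, so some were 2 bins long and were themselves such stretches. Where a run counts as its own nearest stretch, the distance is set by the definition, so no conclusion is drawn from it. The surrounding 50 kb had a median level of 78.7% for the dips, 81.3% for methylated bins and 79.1% for runs under 20%. By distance to unmethylated stretches the dips were thus close to methylated bins. By the count of called CG sites they lay between other bins of their level and methylated bins.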

How the data were processed

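The authors used Trim Galore (0.4.0) to trim the PBAT reads and Bismark (0.14.3) to align them to the longer scaffolds of assembly 6.1.3, and removed duplicates. The deposited files of the 2 deep livers hold 1 methylated or unmethylated call per CG cytosine and read, named by scaffold and position, and coordinates are given as in them. Depth is the number of calls, and levels are shares of calls. Calls 1 bp apart on the 2 strands were joined as 1 site, and CG sites without a call in either liver were not counted.

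Bins, dips, Wilson intervals (95%), Fisher's exact tests, call pairs, read classes and troughs (steps of 10 bp, at least 5 calls) were computed with SciPy 1.17.1, Numba 0.67.0, pandas 2.3.3 and NumPy 2.4.6 under Python 3.11.15, and tested on simulated data. The test took the call at the lowest position of each read in a bin.

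Named regions were the first 10 of the dips that met the rule in each liver alone, ordered by the calls of the less covered liver, the dip with the most CG sites and those nearest the limits. The members and lists were chosen with earlier results of these data known. Alternatives changed the call minimum, bins, limits, flanks, coverage and liver. The low-coverage libraries were left out since their files hold no positions. No sequence or annotation of assembly 6.1.3 was used here, so placing promoters in dips was not run.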

Additional observations from a re-analysis of the deposited data

How the results depend on the processing

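The number of dips, 1234 as reported, followed the limits set. It was 2696 with at least 10 calls per bin, 321 with at least 40, 266 with flanks at 80% or more, 3481 with flanks at 60% or more, 510 with dips under 40% and 676 with 4 flank bins on either side. It was 227 with 1 call per read, 211 in the female and 417 in the male liver alone. It stayed within 1.5 times with shifted bins (1219), 1 kb bins (1400) and without over-covered bins (1229). The share of dips with more CG sites than their flanks (29.3%) was 24.8% and 34.0% at minimums of 10 and 40 calls, 32.9% with 1 kb bins, 32.2% with 1 call per read and 33.2% in the female liver alone. It stayed under 50% in each, but 50% is no baseline, since the share was not computed for methylated bins. The male minus female difference of 2.88 points was 2.08 with flanks at 80%, 1.66 with dips under 40%, 1.12 with 1 kb bins and 0.603 (interval -1.56 to 2.77) with 1 call per read. The share of held-out readings under 50%, 45.1% over both directions, was 40.5% and 56.4% at minimums of 10 and 40 calls, 37.7% with flanks at 80%, 60.2% with dips under 40%, 50.5% with shifted bins and 100% with 1 call per read, where it rests on 1 reading. The same-read excess of call pairs, a mean of 16.7 points, was 17.2 and 16.2 at minimums of 10 and 40 calls, 14.6 with dips under 40%, 16.3 with 4 flank bins, 17.6 with shifted bins and 13.2 with 1 kb bins. With 1 call per read it has no value. Testing all calls between the livers gave 36 dip bins in place of 0. With 1 call per read, Fisher's exact test called 0 of 699 dip bins with at least 10 reads in each liver. Of these, 35 had an unadjusted p under 0.05. Without over-covered bins this test called 0 of 1249. The cause of these shifts was not tested. No paired analysis was possible because each sex has 1 deep library, and the files used here of the numbered low-coverage libraries hold no positions. Depth is a limit: a dip held a median of 53 calls, so the levels of single dips have wide intervals.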
